A study of Mus musculus with 3 samples.

Results

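The interferon response genes are the genes that cells switch on when interferon reaches their surface or when viral nucleic acid is sensed inside them. A set of 36 was chosen by name and known function from the 27389 genes that the array's probes name. The choice was made with earlier results of these data known. They were followed in MigA9 cells, a mouse myeloid cell line transformed by the homeobox gene Hoxa9, with and without DB818. DB818 is a small molecule known to bind DNA and to interfere with the binding of HOXA9. Each of 3 arrays, for 6, 12 and 24 h, held RNA of cells given 2.5 µM DB818, labelled with the dye Cy5, beside RNA of untreated cells, labelled with Cy3. All cells, treated and untreated, carried the Hoxa9 transformation and grew with GM-CSF-conditioned medium, so no comparison with untransformed cells is possible. The cells are a single line, each time has 1 array, and the dyes were not swapped. A constant bias between the dyes and an effect of DB818 therefore cannot be told apart. Whether the 3 untreated RNAs came from 1 culture or several is not stated in the labels.

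Type I interferons signal through a surface receptor and the kinases Jak1 and Tyk2 to a complex that holds Stat2 and Irf9, which binds the interferon-stimulated response element (ISRE) in promoters. Interferon gamma signals through its own receptor to a STAT dimer that binds the gamma-activated site (GAS). The products of the induced genes sense viral RNA or DNA, degrade RNA, stop protein synthesis, tag proteins or attract lymphocytes, and some, such as Socs1 and Usp18, shut the signal down again.

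Of the 36 genes, 25 were measured on all 3 arrays, that is, clear of background and not saturated in either channel. So were 10957 of the 27389 genes on the array. Oasl2 was measured at 24 h only, 9 of the 36 stayed at background in at least 1 dye on every array, and no probe was matched to Xaf1. Of the 25, 8 rose and 1 fell on the mean of the 3 arrays: Trim30a, Eif2ak2, Cxcl10, Igtp, Irf9, Ifi47, Socs1 and Oas1a were higher with DB818, and Irf7 was lower. The other 16 did not pass. The test was limma's moderated test of the mean log2 ratio of treated over untreated against 0, with Benjamini-Hochberg adjustment over 10957 genes and a threshold of 0.05. It takes the 3 times as replicates, so a p-value measures the spread between these arrays only. A change between the times counts as spread, so a gene whose ratio moves with time passes less readily than a level one. By this test 27.9% of all genes tested passed, 20.0% higher and 7.86% lower, so the 9 of 25 members that passed are not far above the share of the array as a whole. The count depended on the 12 h array: without it 3 members rose (Trim30a, Eif2ak2 and Cxcl10), none fell, and 5.11% of all genes tested passed. With Agilent's own processed signals 4 members rose and 2 fell, beside 593 genes higher and 643 lower in all, against 2196 and 861 here. With median centring in place of the loess curve 7 members were higher and 8 lower, beside 4153 and 4477 genes in all.

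The effects were small and stood out most at 24 h. The median log2 ratio of the 25 members was 0.03 at 6 h, 0.07 at 12 h and 0.17 at 24 h, while the median of all genes was 0.03 at each time. A log2 ratio of 0.32 was set as the size of interest, upward or downward. At 24 h 6 of 26 members reached it upward (Oasl2, Trim30a, Cxcl10, Bst2, Eif2ak2 and Dhx58), beside 2.72% of all genes measured, and none reached it downward, beside 1.46%. At 6 h 2 of 25 members, Trim30a and Eif2ak2, reached it upward (all genes 1.79%) and none downward (0.725%). At 12 h no member reached it in either direction (1.39% and 0.723% of all genes). With 1 array for each time these counts carry no test. Oasl2 was measured at 24 h only, so it entered the 24 h count through the array on which it was high. With a stricter minimum on signal in both channels, 3 of 17 members reached 0.32 upward at 24 h, beside 3.76% of all genes. With Agilent's processed signals, which have no added offset, 9 of 26 members did, beside 7.96% of all genes.

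**Figure D1:**
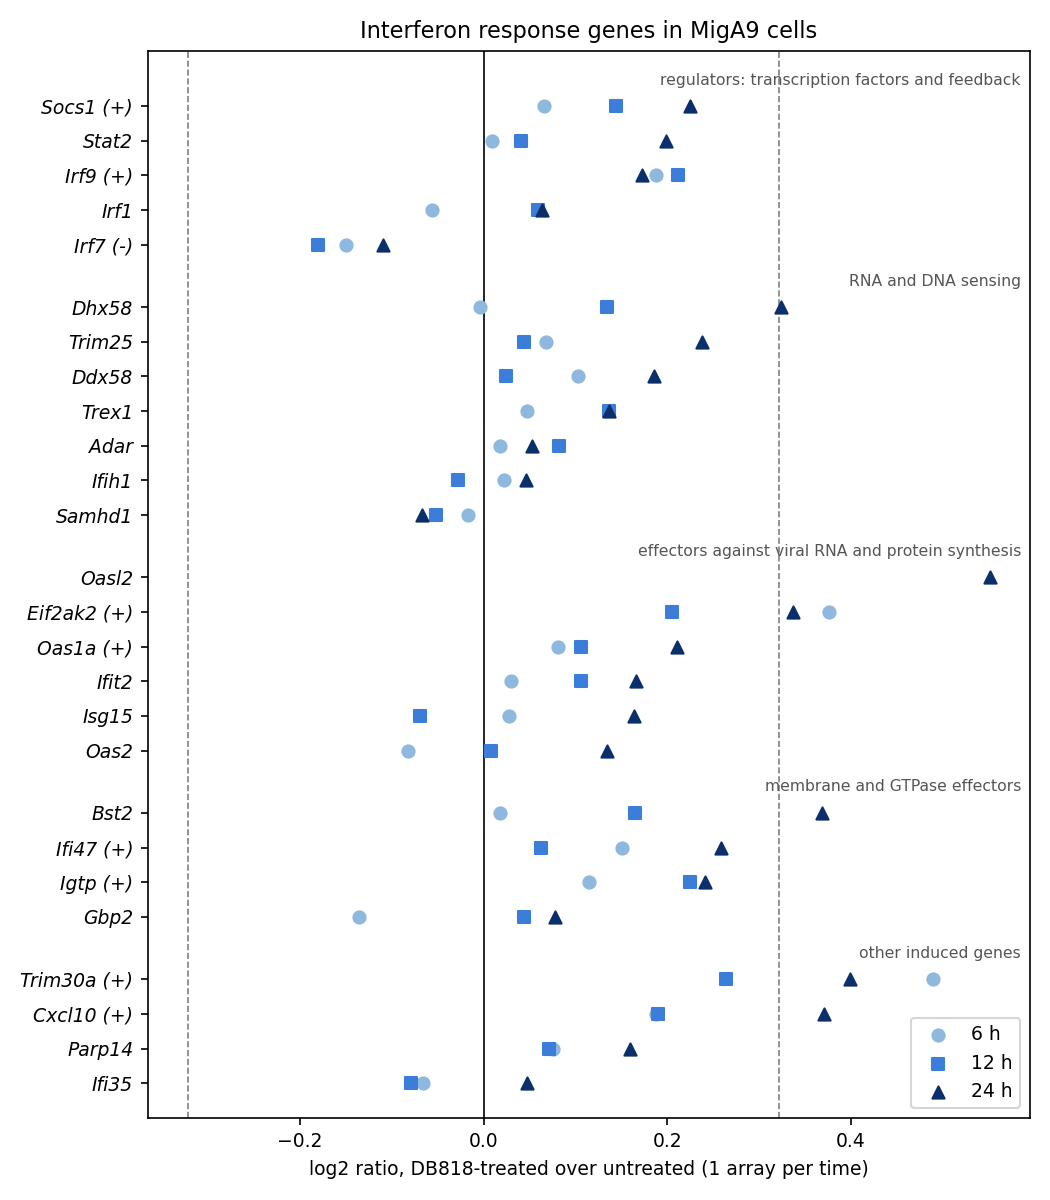
Log2 ratio of treated over untreated cells (x axis) for the 26 interferon response genes measured on at least 1 array, ordered by role, with 1 point per array; dashed lines mark 0.32 and -0.32, and + or - after a name marks a mean that passed limma's test as higher or lower. At 24 h (triangles) 6 genes lie to the right of the upper line, and none lies left of the lower line at any time. Oasl2, 1 of the 6, was measured at 24 h only.

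**Figure D2:**
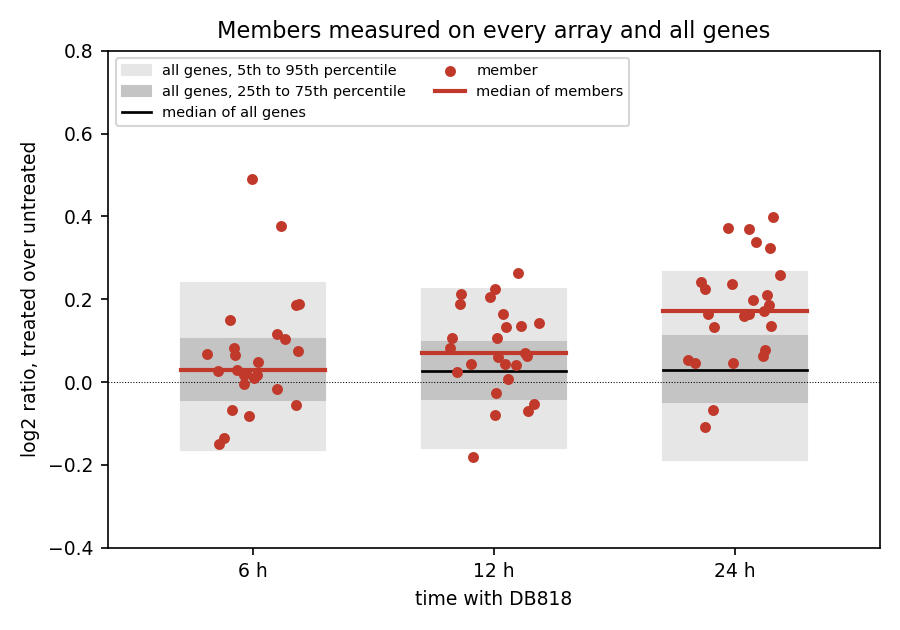
Log2 ratios (y axis) of the 25 members measured on every array (red points, red line for their median) at each time, over the percentiles of all 10957 genes (grey boxes, black line for the median). The median of the members is 0.03 at 6 h, where it lies over the line of all genes, and 0.17 at 24 h, above the 75th percentile of all genes at 0.11.

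The promoters of the members show which of them hold the ISRE core, written as GAAA, any 2 bases and GAAA again, and searched on both strands in the 250 bases before the gene's start. Promoter sequences of 29 of the 36 members were matched in RefSeq (mouse build GRCm38.p6). The core was in 12 of the 29 (41.4%), beside 936 of 27025 genes (3.46%). The GAS core, TTCNNNGAA, was in 7 of the 29 (24.1%) and in 8.13% of all genes. The site TGATTTA, which Hox proteins share with their TALE cofactors, was in 1 of the 29, Stat2 (3.45%), and in 3.07% of all genes. Stretches of 60 bases are printed on the gene's strand, 5′ to 3′, with every letter of an ISRE core in capitals, overlapping cores included. They are shown for the 5 members with the core that rose, for Bst2 and Isg15, which did not pass, and for Ifit1, which was not measured.
Trim30a, chr7:104465195-104465254, minus strand: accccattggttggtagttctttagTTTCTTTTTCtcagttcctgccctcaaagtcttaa
Cxcl10, chr5:92349068-92349127, minus strand: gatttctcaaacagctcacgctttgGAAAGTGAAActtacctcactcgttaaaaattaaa
Igtp, chr11:58199496-58199555, plus strand: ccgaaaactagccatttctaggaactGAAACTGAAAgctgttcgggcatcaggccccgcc
Socs1, chr16:10785582-10785641, minus strand: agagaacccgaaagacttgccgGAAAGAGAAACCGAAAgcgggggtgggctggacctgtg
Oas1a, chr5:120907526-120907585, minus strand: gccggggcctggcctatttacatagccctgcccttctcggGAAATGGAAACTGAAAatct
Bst2, chr8:71537565-71537624, minus strand: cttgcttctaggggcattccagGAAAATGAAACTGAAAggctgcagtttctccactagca
Isg15, chr4:156200856-156200915, minus strand: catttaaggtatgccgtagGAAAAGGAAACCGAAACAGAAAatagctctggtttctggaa
Ifit1, chr19:34640770-34640829, plus strand: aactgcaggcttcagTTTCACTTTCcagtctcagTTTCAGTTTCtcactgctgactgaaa

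A core on the other strand reads as TTTC, 2 bases and TTTC, as in Trim30a and Ifit1. Isg15, Socs1, Oas1a and Bst2 hold cores that overlap each other. Of the 12 members with the core, 9 were tested: 5 rose, none fell (all genes 20.0% and 7.86%), and their median log2 ratio at 24 h was 0.23. Of the 17 without it, 13 were tested: 3 rose, 1 fell, and the median at 24 h was 0.14. The difference between these groups was not tested, and a match describes the letters in this stretch only.

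Among the regulators, Irf9 and Socs1 rose, Irf7 fell, and Stat2 and Irf1 did not pass. Irf9, the DNA-binding subunit of the complex that carries the type I interferon signal, had log2 ratios of 0.19 at 6 h, 0.21 at 12 h and 0.17 at 24 h. All 3 arrays were close to their mean of 0.19 ± 0.03 (SE, n = 3 arrays; limma, adjusted p = 0.00718). The call was lost without the 12 h array (adjusted p = 0.0755) and with no filter on dim probes, where the mean was 0.06 (adjusted p = 0.176). That setting adds a dimmer probe of Irf9, which had -0.06, -0.09 and -0.08 and was never above background in both dyes. Its partner Stat2 had ratios of 0.01, 0.04 and 0.20 in that order, so that the 24 h array stood above the others, and its mean of 0.08 ± 0.04 did not pass (adjusted p = 0.182). Socs1, which binds and blocks the Jak kinases and is itself induced by interferon, was higher on each array, at 0.07, 0.14 and 0.23. Its mean was 0.14 ± 0.04 (limma, adjusted p = 0.0320), a call that 5 of 11 other settings lost.

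Irf7, the factor that amplifies interferon production in infected cells, was lower on all arrays, with log2 ratios of -0.15, -0.18 and -0.11. Its mean was -0.15 ± 0.03 (limma, adjusted p = 0.0166), and it was the only member of the 25 to fall by this test. The gene was dim in both channels, and the ratio of Agilent's processed signals, which has no added offset, put its mean at -0.58, with -0.74 at 6 h and -0.42 at 24 h. The fall did not pass without the 12 h array (highest adjusted p over the alternatives 0.160). Irf1, a factor that interferon gamma induces quickly, had ratios of -0.06, 0.06 and 0.06 and did not pass. Its 2 probes differed: the brighter gave -0.06, 0.11 and 0.18, and the dimmer gave -0.05, 0.01 and -0.06. By the brighter probe alone the mean of Irf1 was 0.08 and did not pass either (limma, adjusted p = 0.257). Usp18, a protease that removes Isg15 from proteins and damps the receptor, was above background in treated cells at 24 h alone. On that array it was 1.07-fold higher in treated cells, set against its own untreated signal, which was not clear of background.

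None of the 7 genes for sensors of viral nucleic acid and their partners passed the test in the main setting, beside 27.9% of all genes. Ifih1, the RNA sensor MDA5, had log2 ratios of 0.02, -0.03 and 0.05. Samhd1, an enzyme that depletes the nucleotides viruses need for DNA synthesis, had -0.02, -0.05 and -0.07, all slightly below 0, and from Agilent's processed signals its mean was -0.20 and passed as lower (adjusted p = 0.0472). Both lay between the 5th and the 95th percentile of all genes on every array.

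The other 5 genes of this group had means between 0.05 and 0.15, and 3 of them are described here after their values were seen. Dhx58, the RNA helicase LGP2, had ratios of -0.0039 at 6 h, 0.13 at 12 h and 0.32 at 24 h, and its mean of 0.15 ± 0.06 did not pass (limma, adjusted p = 0.0970). For Ddx58, the RNA sensor RIG-I, the probes disagreed: the probe measured on all arrays gave 0.30, 0.17 and 0.50, another gave -0.09 at 6 h and -0.12 at 12 h, and the last gave -0.13 at 24 h. For Trim25, the ligase that activates RIG-I, 1 probe gave 0.10, 0.27 and 0.31 and the other gave 0.04, -0.18 and 0.16. By the brighter probe alone both genes passed, with means of 0.32 and 0.23. Trex1, a DNase that clears cytosolic DNA, and Adar, which edits double-stranded RNA, were measured as well and did not pass (adjusted p = 0.0506 and 0.238).

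Of the effectors that act on viral RNA or protein synthesis, Eif2ak2 and Oas1a rose and Ifit2, Oas2 and Isg15 did not pass. Eif2ak2, the kinase PKR that halts translation on sensing double-stranded RNA, had log2 ratios of 0.38 at 6 h, 0.20 at 12 h and 0.34 at 24 h. Its mean was 0.31 ± 0.04 (limma, adjusted p = 0.00524), a 1.24-fold higher level. When the arrays were centred on their medians without loess, the mean was 0.08 and did not pass.

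Oas1a and Oas2 belong to the oligoadenylate synthetases, which make the messenger that activates RNase L. Oas1a was higher on each array, at 0.08, 0.11 and 0.21, with a mean of 0.13 ± 0.04 (limma, adjusted p = 0.0343). Oas2 had -0.08, 0.01 and 0.13 and did not pass (adjusted p = 0.758). Calls of Oas1a were lost under 5 of 11 other settings.

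Oasl2, a synthetase-like protein of the same family, had the highest ratio of any member at 24 h. Its log2 ratio there was 0.55, a 1.47-fold higher level in treated cells, and 48 of 11565 genes had a higher one. From Agilent's processed signals the same spot gave 3.29-fold. At 12 h it was above background in treated cells alone, and at 6 h in neither channel. The 12 h ratio was 1.20-fold, set against an untreated signal that was not clear of background. Its background-subtracted signal in treated cells was 13.5 at 6 h, 31.0 at 12 h and 73.5 at 24 h, and in untreated cells 26.7, 33.5 and 35.5, so that the treated channel was the brighter of the pair at 24 h only; the dyes differ in brightness, and these signals are before any balancing of the channels. Isg15, the ubiquitin-like protein that interferon induces strongly in most cells, had ratios of 0.03, -0.07 and 0.16 (adjusted p = 0.537). Ifit2, which binds viral RNA, had 0.03, 0.11 and 0.17 (adjusted p = 0.0755). Both were named after their values were seen.

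Of the membrane and GTPase effectors, Igtp and Ifi47 rose and Bst2 and Gbp2 did not pass. Igtp (Irgm3) and Ifi47 (Irg47) are immunity-related GTPases that act at the vacuoles of intracellular pathogens. Igtp had log2 ratios of 0.12 at 6 h, 0.22 at 12 h and 0.24 at 24 h, with a mean of 0.19 ± 0.04 (limma, adjusted p = 0.0113) that did not pass with Agilent's processed signals (adjusted p = 0.0927). Ifi47 had 0.15, 0.06 and 0.26, so that the 12 h array was the lowest, and its mean of 0.16 ± 0.04 passed narrowly (adjusted p = 0.0338) and was lost under 6 of 10 other settings.

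Bst2 (tetherin), which holds budding virus at the cell membrane, had 0.02, 0.17 and 0.37. The 6 h array was near 0 and the 24 h array was high. The mean of 0.18 ± 0.06 did not pass (limma, adjusted p = 0.0673), and the change from 6 to 24 h of 0.35 on the log2 scale was the largest of the 25. Gbp2, a guanylate-binding protein induced by interferon gamma, had -0.14, 0.04 and 0.08, with a mean at 0.00 and an adjusted p of 0.946. With Agilent's processed signals the 6 h value of Gbp2 was -0.86 and its mean -0.27, which did not pass either.

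Of the remaining members, Trim30a and Cxcl10 rose and Parp14 and Ifi35 did not pass. Trim30a, a tripartite-motif protein that restrains innate signalling, had log2 ratios of 0.49 at 6 h, 0.26 at 12 h and 0.40 at 24 h. Its mean of 0.38 ± 0.05 was the largest of the 25 (limma, adjusted p = 0.00469), equal to a 1.31-fold higher level, and it passed under all 11 other settings. Both of its probes were above 0 on every array, with 0.24, 0.11 and 0.26 for 1 probe and 0.74, 0.42 and 0.54 for the other. Probes of Trim30a may also detect its close paralogs in the mouse, which was not tested.

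Cxcl10, the chemokine that draws activated T cells through the receptor Cxcr3, had ratios of 0.19, 0.19 and 0.37. Its mean was 0.25 ± 0.04 (limma, adjusted p = 0.00987), but it was -0.30 under median centring without loess, a setting that leaves dim genes low as a whole. Agilent's processed signals gave a larger mean of 0.45. Ifi35, a small interferon-induced protein, had -0.07, -0.08 and 0.05 and did not pass. Parp14 had a mean of 0.10 and did not pass either (adjusted p = 0.0571).

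**Figure D3:**
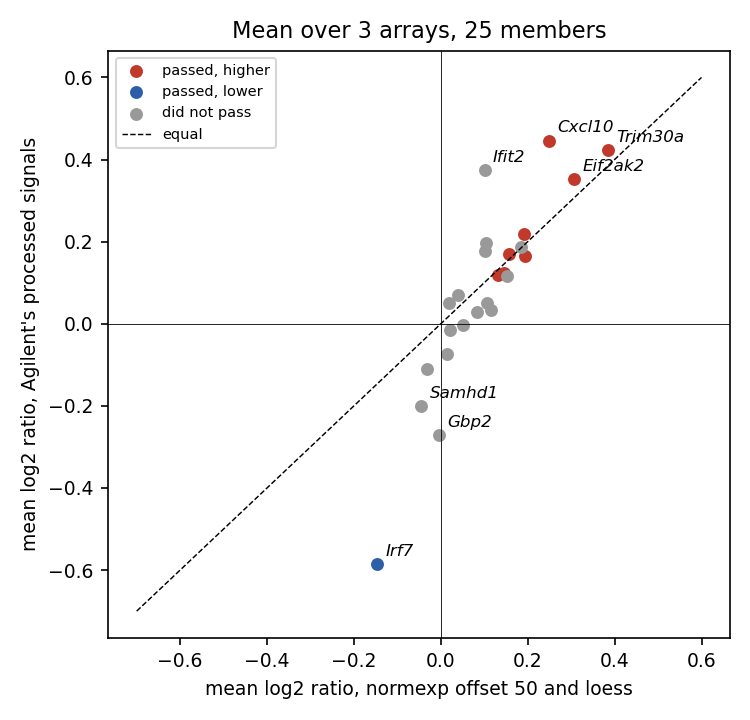
Mean log2 ratio over 3 arrays of the 25 members measured on every array, from signals with an added offset and loess (x axis) and from Agilent's processed signals (y axis); colour gives the call by the first, and the dashed line marks equal values. Irf7 lies at -0.15 on the x axis and -0.58 on the y axis, and Cxcl10 at 0.25 and 0.45.

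The ratios of most members were higher at 24 h than at 6 h. The change from 6 to 24 h was above 0 for 21 of the 25, beside 49.9% of all genes, with a median of 0.12 on the log2 scale and a range from -0.09 (Trim30a) to 0.35 (Bst2). For 12 of the 25 the ratio was higher at each later time, beside 23.6% of all genes. A constant dye bias cancels in such a change, which still has 1 array on each side and no test. The change was at least 0.32 upward for Bst2 and Dhx58 (all genes 1.59%) and downward for none (1.05%). Across 7 other ways of processing the signals, the change was above 0 for at least 19 of the 25 members, or 13 of 14 where a signal minimum left fewer.

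The separate channels show on which side such a change lay. For Bst2 the normalised log2 signal of untreated cells stayed at 11.30, 11.27 and 11.31 over the arrays for 6, 12 and 24 h, while that of treated cells went from 11.32 through 11.43 to 11.68. Cxcl10 had 6.35, 6.46 and 6.41 in untreated cells and 6.54, 6.65 and 6.78 in treated cells. For both genes the treated channel was above the untreated channel on every array, and the change over time was mainly in the treated channel. Dhx58 went from 7.60 to 7.90 in untreated cells and from 7.59 to 8.22 in treated cells, so both channels were higher on the later array. For 21 of the 25 members the spread of the untreated signal between arrays was larger than the mean log2 ratio, with a median spread of 0.21 on the log2 scale. The untreated signal was higher at 24 h than at 6 h for 19 of the 25 and the treated signal for 22. Shares of all genes were not computed for these channel counts, so whether they are particular to the members was not tested.

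**Figure D4:**
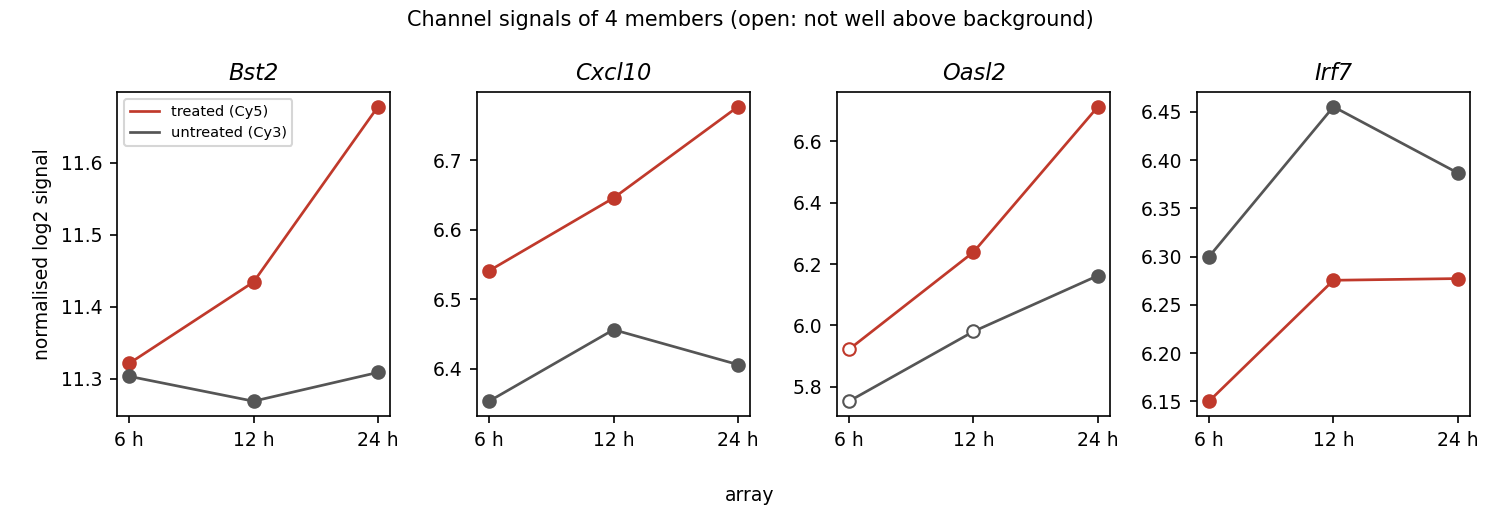
Normalised log2 signal (y axis, a separate scale for each gene) of treated (red) and untreated (grey) cells on the arrays for 6, 12 and 24 h; open points were not well above background. The treated signal of Bst2 goes from 11.32 to 11.68 while the untreated signal stays near 11.3, and the untreated signal of Irf7 lies above the treated signal on every array.

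The members that could not be measured include some of the genes interferon is known to induce most strongly. The 9 genes are Usp18, Ifit1, Ifit3, Oasl1, Mx1, Mx2, Rsad2, Iigp1 and Ifi44, with 14 probes in all. Ifit1 and Ifit3 bind foreign RNA, Mx1 and Mx2 are dynamin-like GTPases that block viruses, and Rsad2 (viperin) makes a nucleotide that ends viral RNA chains. Of the 14 probes none was above background in untreated cells on any array, and in treated cells only that of Usp18 was, at 24 h. Apart from Usp18 in treated cells at 24 h, their RNA was not detectable at this signal, which does not show that it was absent. Of the 25 measured members, 14 lay below the median brightness of all genes measured on every array and 11 above it, and their median background-subtracted signal in untreated cells was 114 at 6 h. In a bulk culture, fewer cells that express a gene and less RNA per cell cannot be told apart.

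The other genes of the interferon pathway, 121 in 6 lists, moved in both directions. Of the 81 tested, 19 rose and 6 fell (30.9%, beside 27.9% of all genes). At 24 h 9 of 82 had a log2 ratio of 0.32 or more and 3 of -0.32 or less (all genes 2.72% and 1.46%). Of the interferon genes themselves, 8 had probes and none was measured on any array. Of 10 genes for receptors, Jak kinases and STAT factors, Jak1, the kinase shared by both interferon pathways, rose, with log2 ratios of 0.11, 0.14 and 0.15 and a mean of 0.13 ± 0.03 (limma, adjusted p = 0.0185). That call was lost with Agilent's processed signals (adjusted p = 0.125), with an offset of 10 (0.0778), without the 12 h array (0.160) and without the 24 h array (0.0540). Tyk2, the kinase of the type I receptor, fell, with -0.32, -0.15 and -0.28 and a mean of -0.25 ± 0.04 (adjusted p = 0.00798), and passed under all 11 other settings.

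Of the 5 receptor chains measured, Ifngr1 and Il10rb fell. Ifngr1, the ligand-binding chain of the interferon gamma receptor, had -0.11, -0.26 and -0.38, with a mean of -0.25 ± 0.05 (limma, adjusted p = 0.0164) that turned to 0.28 under median centring without loess. Its call was also lost with Agilent's processed signals (adjusted p = 0.0928), with an offset of 10 (0.0578) and without the 12 h array (0.0841). Il10rb, a chain shared by the receptors for interferon lambda and interleukin-10, had -0.16, -0.32 and -0.17 and a mean of -0.22 ± 0.04 (adjusted p = 0.0111). It was lost with Agilent's processed signals (adjusted p = 0.113), without the 12 h array (0.0900) and with median centring, where the mean was -0.033 (0.712). A second probe of Il10rb entered the average at 24 h only. The probe measured on all arrays gave -0.16, -0.32 and -0.44, with a mean of -0.31 that passed (limma, adjusted p = 0.00733). The chains of the type I receptor, Ifnar1 and Ifnar2, had means of -0.06 and -0.10 and did not pass (adjusted p = 0.174 and 0.0503). By its brighter probe alone Ifnar2 had -0.21, -0.25 and -0.29, with a mean of -0.25 that passed as lower (limma, adjusted p = 0.00431). Ifngr2, the partner of Ifngr1, was above 0 on every array, at 0.06, 0.05 and 0.14, and did not pass (adjusted p = 0.0980).

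The largest means among the other pathway genes were those of Rnf213, Zbp1, Socs3, Irgm2 and Sp110. Rnf213, a large ubiquitin ligase, had log2 ratios of 0.26, 0.44 and 0.63, with a mean of 0.44 ± 0.06 (limma, adjusted p = 0.00638). Zbp1, a sensor of Z-form nucleic acid that triggers cell death, had 0.10, 0.35 and 0.68 and a mean of 0.38 ± 0.10 (adjusted p = 0.0293). Socs3, an inhibitor of cytokine signalling that STAT3 induces, had 0.06, 0.43 and 0.47 (mean 0.32 ± 0.08, adjusted p = 0.0251). These 3 had ratios that were higher at each later time. Of the 3, Rnf213 passed under all 11 other settings. Zbp1 was lost with Agilent's processed signals (adjusted p = 0.164), median centring (0.173), no filter on dim probes (0.0589) and without the 12 h array (0.0909). Socs3 was lost with Agilent's processed signals (adjusted p = 0.0994), an offset of 10 (0.0596), without the 12 h array (0.120) and without the 24 h array (0.0674). Irgm2, a GTPase of the family of Igtp, had 0.13, 0.27 and 0.45, with a mean of 0.28 ± 0.06 (adjusted p = 0.0148) that was lost with Agilent's processed signals (0.154) and without the 12 h array (0.0664). Sp110, a nuclear body protein, was nearly level at 0.25, 0.24 and 0.29 (mean 0.26 ± 0.03, adjusted p = 0.00469).

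The lowest means were those of Irf8, Ifngr1, Tyk2, Pias4 and Il10rb. Irf8, a factor of the same family as Irf7 that drives monocyte and dendritic cell development, had -0.21, -0.30 and -0.48, with a mean of -0.33 ± 0.05 (limma, adjusted p = 0.00737). Pias4, an inhibitor of STAT factors, had -0.21, -0.18 and -0.28, with a mean of -0.22 ± 0.03 (adjusted p = 0.00675). All 3 arrays were below 0 for each of these 5 genes. By list, 6 of 35 other antiviral effectors rose and 1 fell, and 5 of 13 GTPases and interferon gamma targets rose and none fell. Of the sensors and adaptors 4 of 12 rose and 1 fell, and of the negative regulators 3 of 11 rose and 1 fell. Beside these counts, 20.0% of all genes tested rose and 7.86% fell.

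**Figure D5:**
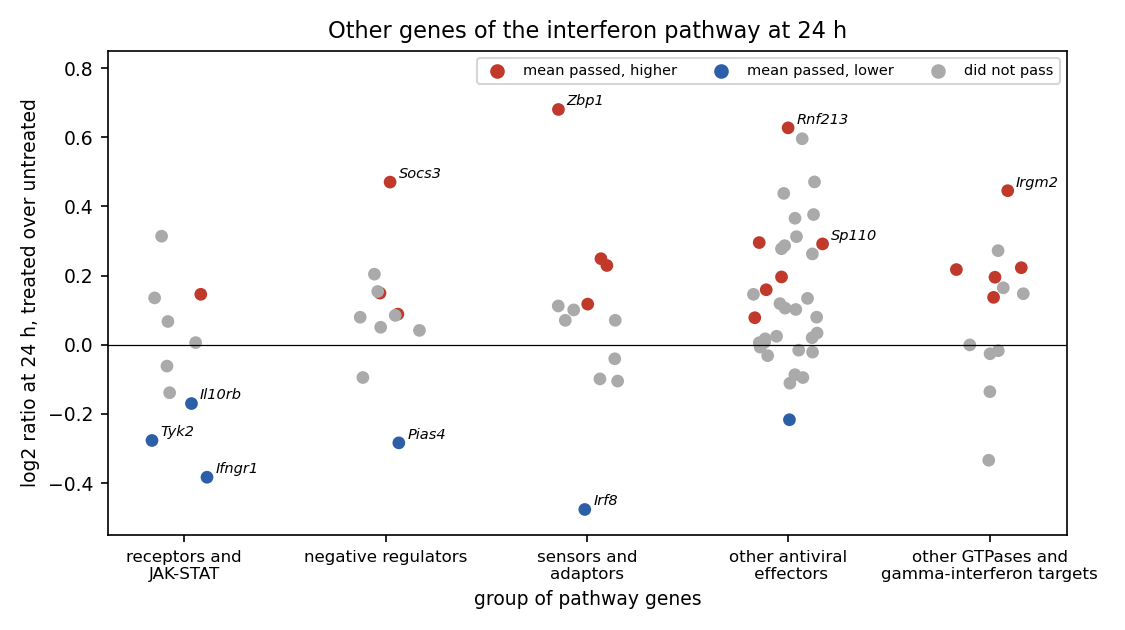
Log2 ratio at 24 h (y axis) of the 81 other interferon pathway genes measured on every array, in 5 groups, with the call on the mean of 3 arrays in colour; the ligand group had no gene above background. Zbp1 at 0.68 and Rnf213 at 0.63 lie highest, and Irf8 at -0.48 and Ifngr1 at -0.38 lowest.

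The cells carried most markers of their lineage. Each array held 41174 probes, of which 40.6% to 41.0% were measured, with 11450 to 11565 genes. Probes spotted repeatedly differed by an SD of 0.034 to 0.051 on the log2 scale. Of 12 markers of a myeloid progenitor line 10 were measured on all arrays, 3 rose and 5 fell, beside 27.9% of all genes that passed in either direction. The means of those that rose were 0.38 for Itgam, 0.32 for Kit and 0.17 for Csf2ra. Those that fell were Mpo (-0.67), Elane (-0.62), Spi1 (-0.29), Prtn3 (-0.28) and Cebpa (-0.13), and Mpo, the peroxidase of primary granules, had -0.32, -0.52 and -1.18 from 6 to 24 h. Some of these calls were lost under other settings. Mpo did not pass with Agilent's processed signals (limma, adjusted p = 0.0767) or median centring (0.335), nor Prtn3 with median centring (mean 0.041, 0.414). Cebpa did not pass with Agilent's processed signals (0.0619), without the 12 h array (0.102) or without the 24 h array (0.0931). Csf2ra did not pass without the 12 h array (0.109). Of 7 plasmacytoid dendritic cell markers, cells known for high interferon output, 3 were measured on all arrays and none passed. Cox6a2 had -0.03, 0.24 and 0.61, Tcf4 had 0.21, 0.09 and -0.04, and Klk1 had -0.09, -0.04 and -0.02, while the defining Siglech was not above background. None of 6 B cell and 6 fibroblast markers was measured, and of 8 T and NK cell and 6 erythroid markers 1 each was, at 6 h only. The part of the shift in myeloid markers in the values of the interferon response genes was not tested.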

How the data were processed

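RNA of treated and untreated MigA9 cells was measured on 3 two-colour Agilent arrays. The authors deposited scanner output of Agilent Feature Extraction 9.1.3.1, per the submitters' processing notes, with spot intensity and background for each dye. Their deposited value table equals the log10 ratio of red (treated, Cy5) over green (untreated, Cy3) of those files, with a largest difference of 0. Its scale and direction are therefore known, and its columns have medians of 0. Dim probes, such as those of Ifi44 and Iigp1, can hold a ratio of exactly 0, so these medians do not show whether the columns were centred. The value table served as an alternative. From the mean intensities, background was corrected with normexp (offset 50) and dyes were balanced by loess within each array (limma 3.58.1, R 4.3.3). All ratios here are log2 values computed from the deposited intensities. Outlier spots, 36 to 52 per array, were left out. A probe counted as measured where both dyes were well above background and neither was saturated; probes of a gene were averaged. Channel levels were scaled with limma's Aquantile method. Where a member was above background in 1 dye only, the brighter channel was set against the higher of 2 values. These were the dim channel's own signal and the lowest signal well above background. For Usp18 and Oasl2 the dim channel's own signal was used, so their values are ratios of the spot and not minimum folds. Names came from the files, updated through RefSeq: 22864 probes by accession, 6732 by symbol and 3498 by synonym, while 8080 kept the name in the file. limma's moderated test of the mean against 0 was checked on simulated data. If the untreated RNAs came from 1 culture, it leaves out the spread of untreated cells. Alternatives changed the offset, correction, normalisation, filter, probe choice, array weights and the arrays entered.

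The members and lists were chosen with earlier results of these data known. Values on each array are given for members that passed, all regulators, and the 6 highest and 6 lowest means, and for other pathway genes that are receptors or Jak and STAT genes that passed or among the 5 highest and 5 lowest means. Genome builds used for the array design are not given in the sources used here.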

Additional observations from a re-analysis of the deposited data

How the results depend on the processing

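The calls rest on 3 arrays at different times, with the 12 h array closest to the fit (limma array weight 4.39, beside 0.42 at 6 h and 0.54 at 24 h). With a signal over 100 in both channels 7 of 14 members passed, all higher, beside 37.1% of all genes. Without each array in turn, the members that passed numbered 3 to 13 (main 9; 13 without 6 h, 3 without 12 h, 6 without 24 h) and all genes that passed 566 to 3271 (main 3057; 566 without 12 h). With array weights, 16 members and 6309 genes passed. With Agilent's processed signals 1236 genes passed, 48.0% of them higher, against 71.8% in the main setting; of the members 6 passed, 24.0% beside 11.3% of all genes. With median centring and no loess, 15 members passed, 7 higher and 8 lower, and 8630 genes, 48.1% of them higher. That setting leaves a trend with brightness: the dimmest of 10 equal groups of genes had a median log2 ratio of -0.68 at 24 h and the brightest 0.43. It turned the mean of Cxcl10 to -0.30, Ifngr1 to 0.28, Ikbke to -0.027, Trim34a to -0.61, Tgtp1 to -0.38, Icam1 to -0.069 and Il18bp to -0.43.

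The members' median at 6 h was -0.014 with median centring. At 12 h it was 0.11 with plain background subtraction, -0.00093 with median centring, 0.12 with a signal over 100 in both channels and 0.11 with the brightest probe only. At 24 h it was 0.23 with plain subtraction and 0.12 with no filter on dim probes. Of members with a log2 ratio of at least 0.32, the signal minimum left 1 of 14 at 6 h and 3 of 17 at 24 h; at 12 h plain subtraction, an offset of 10, Agilent's signals and the brightest probe each gave 1, and median centring gave 2. Of members at -0.32 or less, Agilent's signals gave 2 at 6 h, 1 at 12 h and 1 at 24 h (all genes 7.11%, 6.49% and 8.60%), median centring 7, 6 and 4 (all genes 29.1%, 28.0% and 30.0%), and an offset of 10 gave 1 at 12 h. Except for the effect of median centring on dim genes and of fewer genes or arrays entered, the cause was not tested.

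No paired analysis was possible because each time has a single array. Treated and untreated RNA are already paired within each array, and the test was run on those ratios. The slide or scan as a block was not run: each array is its own slide and all were scanned on the same day.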
